A study of Mus musculus with 4 samples.

Results

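Coenzyme Q (ubiquinone) is the lipid that carries electrons through the inner mitochondrial membrane, and the genes described here encode the enzymes and helper proteins that make it or bind it. The group was given as a list of 10 gene symbols (Coq2, Coq3, Coq4, Coq5, Coq6, Coq7, Coq9, Coq10a, Coq10b and Adck3), and all 10 were found, each on a single row, among the 23847 rows of the deposited table. The table gave FPKM (sequenced fragments per kilobase of transcript, adjusted for depth) for polyadenylated RNA of heart ventricles taken at postnatal day 21 from C57BL/6 males. Cdk8, the kinase of the Mediator complex, was overexpressed specifically in the heart in 2 libraries (Cdk8Tg), and 2 libraries came from wild-type mice (WT). The sources used here do not name the promoter that drives the transgene, nor do they say that the 2 libraries of a group stand for different mice. The p-values therefore reflect the spread among these 4 samples alone, and that spread may be technical. The study asked what raised Cdk8 does to gene expression in the heart.

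Coenzyme Q takes electrons from complexes I and II and from several other dehydrogenases and hands them to complex III, and its reduced form also protects membranes from lipid peroxidation. It is built in mitochondria by joining a long isoprenoid tail to a ring derived from tyrosine. The ring is then hydroxylated, methylated and decarboxylated by a set of COQ proteins that assemble into a complex on the matrix side of the inner membrane. Heart muscle, which is rich in mitochondria, holds much of it, and inherited defects of several of these genes cause coenzyme Q deficiency.

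Cdk8 stood at 7309 and 8122 FPKM in the Cdk8Tg ventricles against 7.89 and 9.86 FPKM in WT, in the direction of the labels. Here and below, genes that fell or rose had a limma adjusted p under 0.05, as 7.98% and 16.9% of all genes tested did. The cardiomyocyte markers Myh6, Tnnt2, Actc1, Ryr2, Pln and Mb summed to 26209 to 28979 FPKM in Cdk8Tg and to 38478 to 39629 FPKM in WT, and 5 of the 6 fell. The 6 fibroblast markers summed to 794 to 986 FPKM in Cdk8Tg and to 622 to 637 FPKM in WT, and 5 of them rose. The 4 atrial markers summed to 861 to 2416 FPKM in Cdk8Tg and 225 to 670 FPKM in WT. Most of each sum was Nppa, at 780 and 2072 FPKM in Cdk8Tg and 395 and 199 FPKM in WT, the only 1 that rose. Myl4 had a log2 change of 2.05, and Myl7 and Sln went the other way (-0.88 and -1.69), none of them called. Of 5 tested leukocyte markers, 2 fell. No endothelial, smooth muscle or erythroid marker passed the test, nor did either of the 2 adipocyte markers, of 6, that were tested. Ucp1 was at 10.7 FPKM in Cdk8Tg replicate 2 and at 0 in every other library. Adipoq, Cidec and Plin1 were also highest in Cdk8Tg replicate 2 (3.08, 3.55 and 1.85 FPKM), whereas Fabp4 was highest in WT. No marker of the 8 cell types examined was at 0 in all libraries. Their part in the results below was not tested. In bulk tissue, fewer cells of a type and less RNA per cell cannot be told apart. Read from the spacing of low FPKM values, depth was about 12160000 and 12560000 fragments in Cdk8Tg and 14240000 and 14360000 in WT, on the unstated assumption that FPKM were scaled by each library's own total.

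All 10 coenzyme Q genes had lower means in the Cdk8Tg ventricles, and 6 of them fell: Coq9, Coq10a, Adck3, Coq10b, Coq7 and Coq2. Among all 11888 genes tested with limma on log2(FPKM + 1), 949 fell at a Benjamini-Hochberg adjusted p under 0.05, or 7.98%, and 2009 rose, or 16.9%. That split depends on the scaling, with 1385 lower and 946 higher after median-of-ratios scaling and 653 lower and 4899 higher with libraries scaled to an equal FPKM sum. None of the 10 rose, with none higher at an unadjusted p under 0.05 and none higher in the authors' deposited table, and 8 were lower at an unadjusted p under 0.05, as were 12.3% of all genes tested. The Cdk8Tg and WT values did not overlap for any of the 10, whereas 21.1% of all tested genes were lower without overlap. The median log2 change of the 10 genes was -0.50, against 0.13 for all genes tested. As a share of all FPKM in a library, which a single factor per library leaves as it is, the 10 genes together held 0.122% and 0.106% in Cdk8Tg and 0.151% and 0.155% in WT. Much of this was Coq9 and Adck3. The 10 genes summed to 548 and 468 FPKM in Cdk8Tg and 770 and 788 FPKM in WT. Without Coq9 and Adck3 the sums were 284 and 262 FPKM in Cdk8Tg and 373 and 375 FPKM in WT. Unlike the shares, these sums depend on the scaling.

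**Figure D1:**
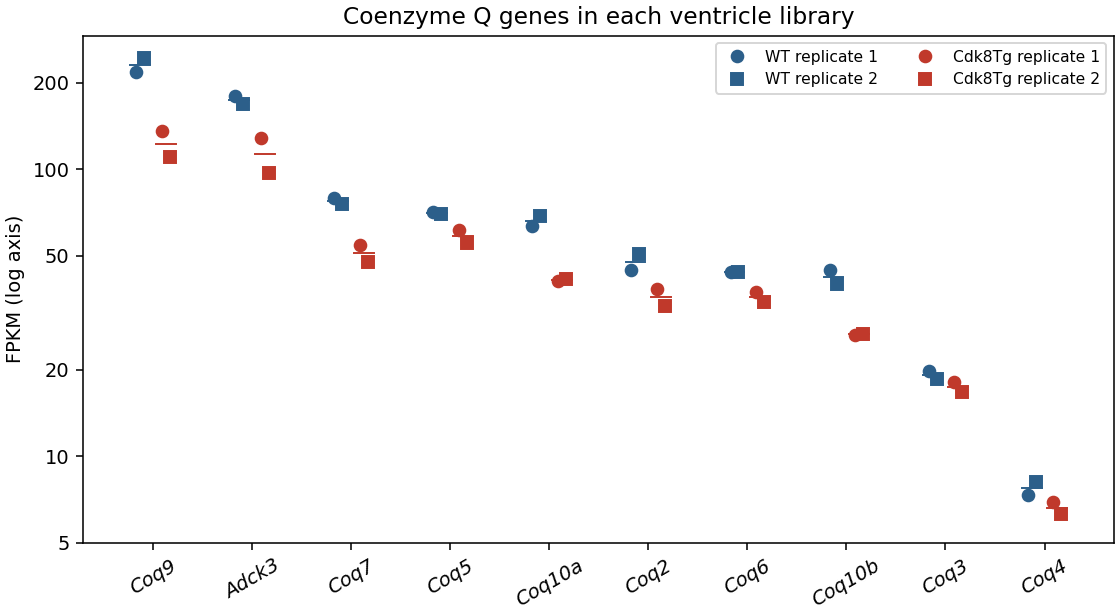
FPKM (log axis) of the 10 coenzyme Q genes in each of the 4 libraries, ordered by WT mean; circles are replicate 1, squares replicate 2 and short lines the group means. Every Cdk8Tg point lies below both WT points of its gene, and levels run from 243.5 FPKM for Coq9 in WT replicate 2 down to 6.28 FPKM for Coq4 in Cdk8Tg replicate 2.

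**Figure D2:**
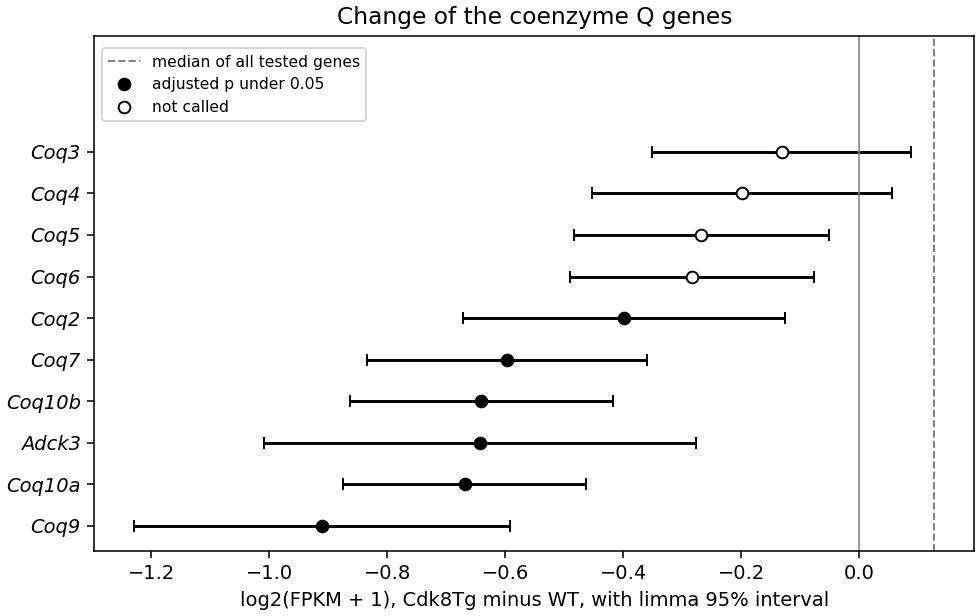
Log2 change of each gene, Cdk8Tg minus WT on the log2(FPKM + 1) scale, with the 95% interval from limma; filled points had an adjusted p under 0.05. The changes run from -0.91 for Coq9 to -0.13 for Coq3, and the dashed line marks the median of all tested genes at 0.13.

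Of the ring enzymes below, Coq2 fell and Coq3, Coq5 and Coq6 did not pass the test, and whether their changes differ from each other was not tested. Coq2, the prenyltransferase that joins the isoprenoid tail to the ring, was at 38.3 and 33.3 FPKM in the Cdk8Tg ventricles against 44.5 and 50.5 FPKM in WT. Both Cdk8Tg values lay under the lower WT value, and the log2 change was -0.40 ± 0.11 (SE, n = 2 per group; limma, Benjamini-Hochberg adjusted p = 0.0499). That call sat at the threshold and was lost under 9 of the 15 alternatives, for example with the libraries scaled to an equal FPKM sum (log2 change -0.21, adjusted p = 0.16). In the authors' deposited table Coq2 had 59.9 FPKM for WT against 40.6 for Cdk8Tg, with q = 0.0214. Of its 31-base transcript stretches, 13.5% also occur in other annotated genes, the largest share among the 10 genes, so its level is uncertain.

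Coq6, the flavin-dependent hydroxylase of the ring, was at 37.4 and 34.4 FPKM in the Cdk8Tg ventricles against 43.7 and 44.0 FPKM in WT. Coq5, the C-methyltransferase, was at 61.3 and 55.4 FPKM in the Cdk8Tg ventricles against 70.7 and 70.0 FPKM in WT. Their log2 changes were -0.28 ± 0.08 and -0.27 ± 0.09 (SE), and neither passed the test (limma, adjusted p = 0.059 and 0.074). After median-of-ratios scaling both did, with adjusted p = 0.027 and 0.033, and 8 of the 10 genes then counted as lower beside 11.7% of all genes tested. Scaled to an equal FPKM sum, 5 genes were lower beside 5.49% of all tested.

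Coq3, the O-methyltransferase that acts on the ring in separate steps, showed the smallest difference of the 10. Its level was 18.1 and 16.8 FPKM in the Cdk8Tg ventricles against 19.8 and 18.6 FPKM in WT, a log2 change of -0.13 ± 0.09 (SE; limma, adjusted p = 0.30). Its 95% interval ran from -0.35 to 0.09, so that neither a fall of a size seen in Coq6 nor no change lay outside it, and on the equal-sum scale its sign turned (0.06). Coq4, which holds the synthesis complex together, was the lowest of the 10 genes, at 6.95 and 6.28 FPKM in the Cdk8Tg ventricles against 7.35 and 8.13 FPKM in WT. Its log2 change was -0.20 ± 0.10 (SE; limma, adjusted p = 0.20), with an interval from -0.45 to 0.06. At the depth given above this level corresponds to 76 to 116 fragments per kilobase of transcript, against 1338 to 3468 for Coq9. Of the exon bases of Coq4, 27.1% overlap exons of Trub2 on the opposite strand, and the sources used here do not give the strand setting of the authors' counting.

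Coq7 and Coq9, whose products work as a pair, both fell. Coq7, the hydroxylase of the penultimate ring step, was at 54.3 and 47.6 FPKM in the Cdk8Tg ventricles against 79.1 and 75.8 FPKM in WT, or 65.8% of the WT mean. The log2 change was -0.60 ± 0.09 (SE; limma, adjusted p = 0.015). Coq9, the lipid-binding protein that presents the precursor to COQ7, was the most abundant of the 10 genes in both groups, on the FPKM scale, which is per transcript length. Its level was 135.4 and 110.1 FPKM in the Cdk8Tg ventricles against 217.6 and 243.5 FPKM in WT, a drop of the mean from 230.6 ± 18.3 to 122.7 ± 17.9 FPKM (SD, n = 2 per group). Its log2 change of -0.91 ± 0.13 (SE; limma, adjusted p = 0.011) was the largest of the 10, and the authors' deposited table had 293.2 FPKM for WT against 139.98 for Cdk8Tg, with q = 8.6e-04.

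The start of Coq9 lies 37 bases from that of Ciapin1, a gene of cytosolic iron-sulfur protein assembly that is transcribed in the opposite direction. Ciapin1 was at 9.63 and 8.72 FPKM in the Cdk8Tg ventricles against 9.86 and 10.3 FPKM in WT, with a log2 change of -0.12 ± 0.09 (SE; limma, adjusted p = 0.36). Coq6 likewise starts 176 bases from Fam161b on the other strand, which was at 3.45 and 3.65 FPKM in the Cdk8Tg ventricles against 2.78 and 3.27 FPKM in WT. Whether the changes of the genes in such a pair differ was not tested.

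Adck3, now named Coq8a, encodes an atypical kinase-like ATPase that supports the synthesis complex, and it was the second most abundant of the 10 genes. Its level was 128.4 and 96.7 FPKM in the Cdk8Tg ventricles against 179.8 and 169.2 FPKM in WT. The Cdk8Tg libraries differed from each other by more than the WT libraries did, and the log2 change of -0.64 ± 0.15 (SE; limma, adjusted p = 0.033) had a wide interval, from -1.01 to -0.28. Quantile normalization ended the call (adjusted p = 0.054) at a change about as large, -0.59. Its paralog Adck4, now named Coq8b, went the other way, from 2.87 and 3.51 FPKM in WT to 5.95 and 7.57 FPKM in Cdk8Tg. Adck4 rose by 0.89 ± 0.15 (SE; limma, adjusted p = 0.016), and the authors' deposited table had 4.05 FPKM for WT against 7.69 for Cdk8Tg, with q = 0.0076.

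The levels of this paralog pair were also compared within each library. The FPKM of Adck3 was 62.8 and 48.2 times that of Adck4 in the WT libraries, and 21.6 and 12.8 times in the Cdk8Tg libraries. On the log2(FPKM + 1) scale the ratio was lower by 1.53 in Cdk8Tg (-1.53), with no overlap of the groups, and by -1.14 or -1.70 with a pseudocount of 5 or 0.1. An exact two-sided permutation test gave p = 0.333, the smallest that 2 libraries per group allow, so that this comparison cannot pass 0.05. Adck3 remained the more abundant of the pair in every library.

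Coq10a and Coq10b encode proteins with a lipid-binding fold that bind coenzyme Q and are needed for it to work in the respiratory chain, rather than for its synthesis. Coq10a was at 40.9 and 41.4 FPKM in the Cdk8Tg ventricles against 63.4 and 68.7 FPKM in WT, a log2 change of -0.67 ± 0.08 (SE; limma, adjusted p = 0.0082). Coq10b was at 26.5 and 26.6 FPKM in the Cdk8Tg ventricles against 44.4 and 39.7 FPKM in WT, a log2 change of -0.64 ± 0.09 (SE; limma, adjusted p = 0.011). The Cdk8Tg replicates of each gene lay close together, and both paralogs stood at 62.3% and 63.2% of their WT means. The ratio of Coq10a to Coq10b was 1.54 and 1.55 in the Cdk8Tg libraries and 1.43 and 1.73 in WT, so the WT libraries lay on both sides of the Cdk8Tg ones. Its log2 difference was -0.03 (exact two-sided permutation p = 1, with 0.333 the smallest possible), and without WT replicate 2 it turned to 0.11.

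Promoters are shown for this paralog pair and for Coq7, since these 3 genes fell and their windows lie wholly or almost wholly outside the annotated gene. Each run is the 250 bases before a RefSeq start (GRCm38.p6), 5′ to 3′ on the strand of the gene, with capitals marking the letters of the CCAAT box (CCAAT or ATTGG) and of the cyclic AMP response element half-site (TGACG or CGTCA). Coq10b lies on the plus strand at chr1:55052520-55052769, Coq10a on the minus strand at chr10:128368981-128369230 (the nearer of 2 RefSeq starts to the gene body), and Coq7 on the minus strand at chr7:118533357-118533606.
Coq10b: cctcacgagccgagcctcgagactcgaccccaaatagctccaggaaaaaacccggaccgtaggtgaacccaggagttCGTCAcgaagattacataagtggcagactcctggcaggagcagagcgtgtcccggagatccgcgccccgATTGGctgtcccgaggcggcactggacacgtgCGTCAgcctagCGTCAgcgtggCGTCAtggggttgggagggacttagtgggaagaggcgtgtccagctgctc
Coq10a: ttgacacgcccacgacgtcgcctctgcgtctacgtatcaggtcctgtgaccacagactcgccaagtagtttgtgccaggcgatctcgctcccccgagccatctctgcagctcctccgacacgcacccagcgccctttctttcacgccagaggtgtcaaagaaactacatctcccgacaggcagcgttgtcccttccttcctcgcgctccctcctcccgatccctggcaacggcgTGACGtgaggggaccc
Coq7: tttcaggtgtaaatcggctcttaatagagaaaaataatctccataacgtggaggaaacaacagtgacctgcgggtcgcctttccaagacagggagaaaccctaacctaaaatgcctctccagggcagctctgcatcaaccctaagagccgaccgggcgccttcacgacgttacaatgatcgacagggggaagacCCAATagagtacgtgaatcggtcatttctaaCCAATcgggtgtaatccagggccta

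In the Coq10b window 3 of the 4 half-sites stood in a row and began 72, 61 and 50 bases before the start, whereas the Coq10a window held 1, 16 bases before its start, and Coq7 had none but held 2 CCAAT boxes. The 9 members with a promoter in the table (all but Coq5) have 12 such windows between them. The half-site was found in 4 of the 12 (Coq2, Coq9, Coq10a and Coq10b) and the CCAAT box in 4 of the 12 (Adck3, Coq6, Coq7 and Coq10b). Of all 32851 promoters of the same length, 17.8% and 33.8% held these letters on either strand. The core of nuclear respiratory factor 1 (GCGCATGC) was in 1 member, Coq2, and in 2.26% of all promoters. An estrogen-related receptor half-site (AAGGTCA) was in 1 member, Coq10a, before its farther start, and in 4.08% of all. Neither the ETS core CCGGAAG nor the YY1 core AAGATGGC was found in any member, against 6.91% and 1.56% of all promoters. These matches are descriptions of letters, not of binding, and none of the 6 motifs was common to the 6 genes that fell.

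The changes of the coenzyme Q genes were also set beside those of the chain they serve. In each library the mean log2(FPKM + 1) of 16 genes for complex I core and complex III subunits was taken. It was subtracted from the value of each coenzyme Q gene. Apart from the effect of the added 1, this cancels a single scaling factor per library but not a normalization that depends on the level. The mean of these 16 genes itself was 0.58 lower in Cdk8Tg (-0.58). Relative to it, with the values as deposited, Coq9 was lower by 0.33 in Cdk8Tg (-0.33) and its groups did not overlap. Coq7, Coq10a, Coq10b and Adck3 differed by -0.08 to -0.01, with overlapping groups. Coq2, Coq3, Coq4, Coq5 and Coq6 were higher relative to the chain by 0.19 to 0.45, without overlap. The median log2 change of all genes tested was 0.13, so most of them were also higher relative to the chain. What share of all genes did so without overlap was not counted. The directions of the coenzyme Q genes were not stable to the normalization. After quantile normalization the chain mean changed by -0.28 only, Coq2, Coq4 and Coq6 turned to -0.18, -0.06 and -0.06 relative to it, and Coq5 and Coq3 came to 0.00 and 0.04 with overlapping groups. Coq9 was then at -0.56, and Coq7, Adck3, Coq10b and Coq10a at -0.31, -0.31, -0.42 and -0.43, without overlap. Coq7, Coq9, Coq10a, Coq10b and Adck3 were thus lower relative to the chain with the deposited and with the quantile-normalized values. Median-of-ratios and equal-sum scaling apply a single factor per library and so could hardly change these differences. Of these genes, only Coq9 kept its groups apart in both. With the values as deposited, leaving out a single library turned the sign for Coq7, Coq10a, Coq10b and Adck3. No test was made on these relative values.

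**Figure D3:**
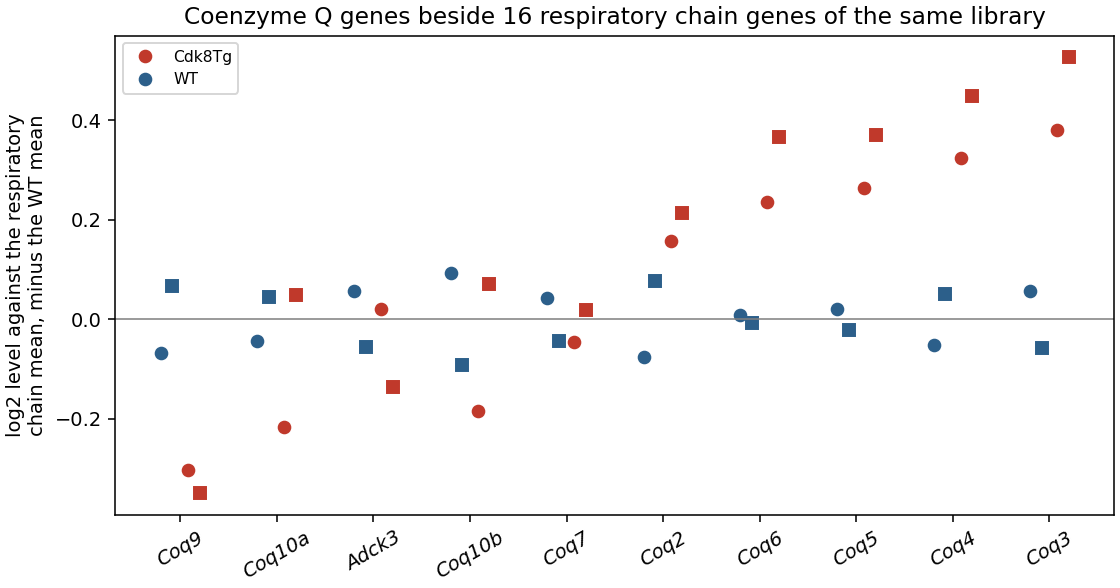
Log2 level of each coenzyme Q gene minus the mean of 16 respiratory chain genes in the same library, shown as the difference from the WT mean; circles are replicate 1 and squares replicate 2. Both Cdk8Tg points of Coq9 lie below the WT points, those of Coq2, Coq6, Coq5, Coq4 and Coq3 lie above them, and the groups overlap for the other four, with values as deposited. As deposited, most of all tested genes were also higher relative to the chain mean. After quantile normalization Coq2, Coq4 and Coq6 turn to -0.18, -0.06 and -0.06.

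Around the 10 genes, the remaining synthesis genes went both ways. Of 7 measured genes, Adck4 and Fdxr rose, Pdss1 fell and 4 did not pass the test, with a median log2 change of -0.34. For all genes tested, 16.9% rose and 7.98% fell, with a median of 0.13. Pdss1, a subunit of the enzyme that makes the isoprenoid tail, was at 8.21 and 5.68 FPKM in the Cdk8Tg ventricles against 11.78 and 11.4 FPKM in WT, a log2 change of -0.68 ± 0.16 (SE; limma, adjusted p = 0.036). It was not called in the authors' deposited table (q = 0.20). Its partner Pdss2 was at 10.4 and 10.1 FPKM in the Cdk8Tg ventricles against 12.2 and 14.3 FPKM in WT (adjusted p = 0.069). Fdxr, the ferredoxin reductase of the electron relay that feeds COQ6 and other mitochondrial enzymes, was at 6.43 and 7.33 FPKM in the Cdk8Tg ventricles against 3.88 and 3.52 FPKM in WT. Its log2 change was 0.74 ± 0.11 (SE; limma, adjusted p = 0.013), and the authors' deposited table gave q = 0.057.

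The mevalonate pathway supplies the isoprenoid units. Of 12 genes listed for this pathway and its branches, 2 rose, 1 fell and 9 did not pass the test, with a median log2 change of 0.23. Of all genes tested, 16.9% rose and 7.98% fell, with a median of 0.13. The rises were Pmvk, phosphomevalonate kinase, by 0.56 and Ggps1, geranylgeranyl diphosphate synthase, by 0.65, and Fdft1, the squalene synthase that draws farnesyl units toward sterols, changed by -0.48. None of these 3 was called in the authors' deposited table. On the equal-sum scale 8 of the 12 counted as higher, where 41.2% of all genes tested did.

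Of 11 tested enzymes that pass electrons to coenzyme Q, 5 fell, 1 rose and 5 did not pass the test, with a median log2 change of -0.44. Beside this list and the chain genes below, 7.98% of all genes tested fell and 16.9% rose, with a median of 0.13. Prodh, proline dehydrogenase, was at 7.53 and 7.46 FPKM in the Cdk8Tg ventricles against 16.5 and 20.04 FPKM in WT, a log2 change of -1.18. The subunit genes of complex II Sdhb, Sdhc and Sdhd changed by -0.94, -0.80 and -0.47, and Etfdh, which links fatty acid oxidation to coenzyme Q, by -0.76. The call of Sdhd ended on the equal-sum scale (-0.27, adjusted p = 0.065) and with quantile normalization (-0.22, adjusted p = 0.13). The fourth subunit gene, Sdha, stood at -0.44 and was not called (adjusted p = 0.056). Nqo1, a cytosolic quinone reductase, was at 31.1 and 50.5 FPKM in the Cdk8Tg ventricles against 20.3 and 21.5 FPKM in WT, and its rise of 0.90 did not pass with median-of-ratios scaling (adjusted p = 0.060). Among the 16 genes for complex I core and complex III subunits, 13 fell and 0 rose with limma (0 higher at an unadjusted p under 0.05), with a median of -0.56. The 4 with the smallest p were Ndufs7, Uqcrq, Uqcrb and Uqcrc1, at -0.92, -0.80, -0.70 and -0.84, of which the authors' deposited table did not call Ndufs7 (q = 0.61). On the equal-sum scale 8 of the 16 counted as lower, and with quantile normalization 5 did, beside 5.49% and 8.76% of all genes tested.

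**Figure D4:**
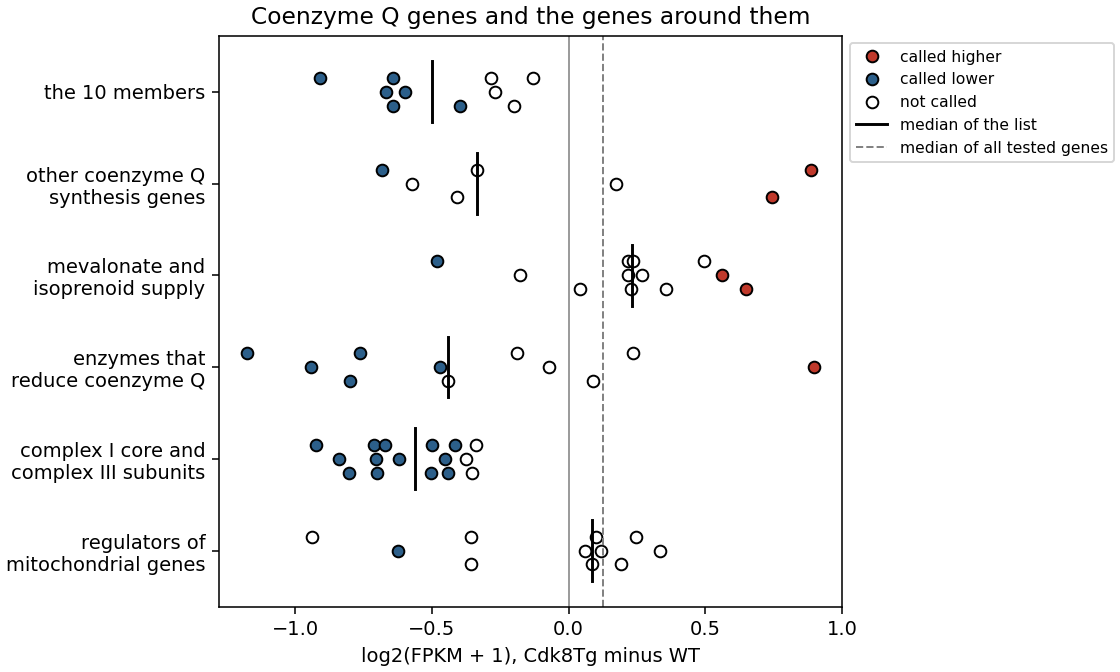
Log2 change, Cdk8Tg minus WT, of every tested gene in the coenzyme Q list and 5 lists around it; bars are list medians, colours show limma calls and the dashed line is the median of all tested genes. The coenzyme Q genes (median -0.50) and the complex I core and complex III subunits (median -0.56) lie to the left of 0. The mevalonate and isoprenoid list (median 0.23) lies mostly to the right, on the side of the median of all tested genes (0.13).

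The 3 tested genes whose centred log2 values over the 4 libraries lay nearest to those of Coq9 were Actr3b, Cox8b and Sdhb. Cox8b, a muscle isoform of a cytochrome c oxidase subunit, was at 972.7 and 792.7 FPKM in the Cdk8Tg ventricles against 1579 and 1684 FPKM in WT, a log2 change of -0.89. Actr3b, an actin-related protein, changed by -0.89 as well. Of 11161 candidate genes, 139 lay within a Euclidean distance of 0.25 of Coq9, so many genes shared this pattern over 4 libraries.

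On GRCm38 (GENCODE M21) Coq9 lies on chromosome 8 at 94838321 to 94854895, Coq7 on chromosome 7 at 118509659 to 118533356, Coq10a on chromosome 10 at 128363100 to 128368997 and Coq10b on chromosome 1 at 55052770 to 55072702. Adck3 lies on chromosome 1 at 180165238 to 180199602, where 6.9% of its exon bases overlap Cdc42bpa on the opposite strand, and Coq2 on chromosome 5 at 100654723 to 100675140.

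All 6 falls were also called in the authors' deposited table, which called 8.43% of its tested genes lower. Leaving out either WT library ended most limma calls, over all genes as well as here. Without WT replicate 1 only Coq10a was called, beside 2.26% of all tested genes called lower, and without WT replicate 2 none was, beside 1.19%, although all 10 changes kept their sign and 6 and 5 genes had an unadjusted p under 0.05. Without WT replicate 1 and without WT replicate 2, Coq9 stood at -0.99 and -0.83, Coq7 at -0.57 and -0.63 and Adck3 at -0.60 and -0.69. Coq10a stood at -0.73 and -0.61, Coq10b at -0.56 and -0.72 and Coq2 at -0.49 and -0.31.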

How the data were processed

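The submitters' processing notes name TopHat 1.0.0, Cufflinks and Cuffdiff and the mm10 build. The sources used here do not give the annotation, the strand setting or the scaling between libraries. The deposited values were FPKM per gene and library, made by the authors. A second table deposited by the authors held group FPKM values and, per the file headers, p-values and q-values.

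Values were taken to log2(FPKM + 1) and fitted in limma 3.58.1 (R 4.3.3) with a variance trend, no covariates and 2 residual degrees of freedom. All 11888 rows whose mean reached 1 FPKM entered, and a gene was called at a Benjamini-Hochberg adjusted p under 0.05. All 10 genes passed that filter. The added 1 shrinks the fold changes of low genes. Groups came from the sample titles. The code was tested on simulated data. The members, lists and tests were chosen with earlier results of these data known, and the motifs after the values were seen. Named genes were all members, every called gene of lists with at most 12 measured genes, the 4 smallest p-values of the longer list, and the 3 genes nearest to the most changed member. Ciapin1, Fam161b, Pdss2, Sdha and the mitochondrial regulators named at the end other than Ppara were chosen after their values were seen. Positions are from GENCODE M21, promoters from RefSeq. Adck3 and Adck4 were matched to their current symbols Coq8a and Coq8b through RefSeq synonyms.

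Alternatives were pseudocounts of 0.1 and 5, no filter and a minimum mean of 5 FPKM, median-of-ratios, quantile and equal-sum scaling, other variance models, a block for the replicate number, the omission of each library in turn, and the authors' calls. The scaling and omission alternatives for the levels relative to the respiratory chain, and quantile normalization for the paralog ratios, were added after the data were seen.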

Additional observations from a re-analysis of the deposited data

How the results depend on the processing

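The number of the 10 genes called lower was 6, and stayed between 4 and 8 under every change of pseudocount, scaling and variance model, with a minimum mean of 5 FPKM and with the authors' calls. With no filter on low values it was 0 (limma, 8 at an unadjusted p under 0.05), in a fit over 23847 rows that called 0.457% of them lower. Leaving out each library gave 0 to 6, where the group left with a single sample is assumed to vary like the other and 1 residual degree of freedom remains. The number called higher was 0 throughout (leaving out each library, 0 to 0). The replicate block gave 5 lower, losing Coq2, and the same-numbered libraries deviated together by a correlation of only -0.026, so the numbers were not taken to pair the samples. Of 150 changes of single members under alternatives, 1 reversed, Coq3 on the equal-sum scale (0.056), and 24 lost their call. The log2 ratio of Coq10a to Coq10b ran from -0.17 to 0.11 with each library left out, reversed without WT replicate 2, and that of Adck3 to Adck4 from -1.88 to -1.17. Levels relative to the respiratory chain, tried under other settings after the data were seen, reversed with quantile normalization for Coq2 (-0.18), Coq4 (-0.064) and Coq6 (-0.062). With each library left out they ran from -0.057 to 0.031 for Coq7, from -0.22 to 0.048 for Coq10a, from -0.18 to 0.071 for Coq10b and from -0.14 to 0.020 for Adck3. Scaling moved the median of all genes from 0.13 to 0.00 (median-of-ratios) or 0.30 (equal sum). The median of the 10 genes lay 0.63, 0.64 and 0.60 below it (-0.63, -0.64 and -0.60). A single factor per library shifts both medians nearly alike, so that gap could hardly change there. With quantile normalization the gap was -0.54, and with each library left out it ran from -0.71 to -0.48. For the lists, 48 of 150 counts moved by more than 1.5 times. The cause of these moves was not tested. Genes below about 10 FPKM, such as Coq4 at 76 to 116 fragments per kilobase, rest on fewer fragments per kilobase than genes at higher levels.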

Other observations

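Of 11 regulators of mitochondrial genes, 1 fell, Ppara, a nuclear receptor for fatty acids, by 0.62 on the log2 scale (-0.62; limma, adjusted p = 0.024), and 0 rose with limma (2 higher at an unadjusted p under 0.05). The shares of all genes tested that fell and rose were 7.98% and 16.9%. The counts of regulators depend on the scaling. On the equal-sum scale 5 counted as higher, where 41.2% of all genes tested did. With median-of-ratios scaling, with the replicate block and with the authors' calls, 3 counted as lower in each case. Beside these counts 11.7%, 8.16% and 8.43% of all genes tested were called lower, in that order. The authors' deposited table also called Ppargc1b lower (q = 0.045). Ppargc1a, the coactivator of mitochondrial biogenesis, was at 23.2 and 20.6 FPKM in the Cdk8Tg ventricles against 31.1 and 58.7 FPKM in WT. Its groups did not overlap, the WT libraries lay far apart, and it did not pass the test (adjusted p = 0.065), while the authors' deposited table called it lower (q = 8.6e-04). Esrra was at 41.5 and 34.5 FPKM in the Cdk8Tg ventricles against 49.995 and 47.6 FPKM in WT (limma, adjusted p = 0.067). Nrf1, nuclear respiratory factor 1, was at 4.70 and 4.69 FPKM in the Cdk8Tg ventricles against 4.69 and 4.25 FPKM in WT, with overlapping groups.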
